A study of Mus musculus with 10 samples.

Results

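The 10 genes described here take part in TGF-beta, activin and BMP signalling, and their mRNA was measured in single alveolar cells of the mouse lung. They are the ligand genes Tgfb1, Tgfb2, Inhba, Inhbb and Bmp4, the receptor genes Tgfbr1 and Tgfbr2, the inhibitor genes Bambi and Smad7, and the target gene Id1. They were chosen by symbol, each symbol matched 1 row among the 31053 genes of the count tables, and all 10 passed the filter on low counts. The study asked how alveolar type 2 (AT2) cells, the surfactant-producing stem cells of the alveolus, and their wildtype neighbours behave after an oncogene is switched on in some of them. Distal lungs of adult mice were dissociated, EpCAM+ cells that were RFP+ or YFP+ were sorted, and each sorted sample gave 1 droplet library (10 in all).

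All mice carried Sftpc-CreERT2, a tamoxifen-inducible recombinase driven by the promoter of the surfactant protein C gene, which is active in AT2 cells, and all received 3 doses of 0.2 mg tamoxifen per gram of body weight at about 8 weeks of age. Confetti control mice (Sftpc-CreERT2; R26R-Confetti) carried a colour reporter and no oncogene, and gave 1 RFP and 1 YFP library. The labels give no time for them, and the study's methods place them at 2 weeks. In the oncogene mice, called mosaic mice here, the recombined allele couples colour to an oncogene: RFP marks cells that carry the mutant oncogene and YFP marks wildtype cells of mosaic lungs, with 2 RFP and 2 YFP libraries at 4 days and 2 of each at 2 weeks after induction. The colours mark cells that descend from those with an active Sftpc promoter, so the sort does not separate AT2 cells from the states they pass into. The methods pool at least 2 lungs per sample and use mice of both sexes on a mixed background. They state that the libraries were made on 2 days without saying which on which, so the part of the day in a difference was not tested. Nothing says that the libraries of a group came from separate litters, so each p-value measures the spread between these pooled samples only.

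TGF-beta and activin ligands are secreted dimers that bring together type II and type I receptor kinases, which phosphorylate SMAD2 and SMAD3, whereas BMP ligands act through their own receptors on SMAD1, SMAD5 and SMAD8. Inhibitory proteins at the membrane and in the cytoplasm hold both branches in check, and several of them are themselves targets of the pathway. In the alveolus, BMP signalling is known to restrain AT2 cell division and TGF-beta to act on the passage from AT2 to the flat AT1 cell.

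Before the values, 4 facts of the series bear on all of them. The libraries of 4 days differ within their groups: AT2-like clusters held 89.8% and 95.3% of the alveolar cells in RFP and YFP replicate 1 but 2.31% and 0.988% in replicate 2, against 96.5% and 96.8% in the Confetti libraries. Among cells with a UMI (a molecule counted by its barcode) of Xist or of a Y-linked gene but not of both, those with Xist made up 100% in both Confetti libraries, 25.8% to 85.1% in the replicate 1 libraries of mosaic mice and under 1% in their replicate 2 libraries, so the sex of the pooled mice cannot be told apart from the replicate number, nor in part from the Confetti group. The alveolar cells of a library held 7336824 to 71543489 UMIs, with a median of 3251 (Confetti YFP) to 15813 (2 weeks RFP replicate 1) per cell, so low genes are best resolved in the 2 weeks RFP libraries. In all, 3118 of 32698 cells lay in immune, endothelial, mesenchymal or ciliated clusters and were set aside, from 3.18% of a library to 42.3% in 2 weeks YFP replicate 2, which left 29580 alveolar cells. In those, the summed markers of the set-aside types ran from 10.0 to 20.7 CPM (the usual unit of count tables, in which each library's counts are scaled to 1 common total) for immune, 15.5 to 43.8 for endothelial, 0.160 to 2.03 for mesenchymal and 15.1 to 93.9 for ciliated cells. Epcam and Sftpc were found in every library.

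Counts of the alveolar cells were summed per library and scaled to CPM with TMM factors, and the levels in the following paragraphs are on that scale. In such sums, more cells of a state and more RNA per cell cannot be told apart. Differences are log2 fold changes with their standard errors (SE) from edgeR's quasi-likelihood test over all genes, with p adjusted by Benjamini-Hochberg and called under 0.05.

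At 2 weeks the RFP libraries stood apart from the YFP libraries in 9 of the 10 genes. Tgfb1, Tgfb2, Inhba, Bmp4, Tgfbr1, Tgfbr2, Smad7 and Id1 were higher in both RFP libraries than in both YFP libraries, Bambi was lower in both, and Inhbb overlapped. Such non-overlap held for 53.4% of all 13782 genes tested (28.3% higher and 25.1% lower in RFP), since 2 libraries against 2 separate easily. The median difference of the members was 0.69 on the log2 scale, beside 0.01 for all genes. None of the 10 passed the adjusted threshold, and neither did any other gene (percent called 0, with a smallest adjusted p of 0.0522). At an unadjusted p under 0.05, 4 members were higher in RFP cells and none lower, where 16.3% of all genes met that limit (8.51% higher and 7.84% lower), and DESeq2 on the same sums called 457 genes but no member.

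A second fit let same-numbered RFP and YFP libraries of a time point share a block. The replicate numbers track each other in these data (the deviations of RFP and YFP libraries from their group means correlate at 0.481 over genes at 4 days and 0.627 at 2 weeks), and the block within each time point was chosen after seeing the data for the comparisons at 1 time. With no filter on low counts and no block, 1381 genes passed at 2 weeks, Tgfb2, Inhba and Bambi among them (adjusted p = 0.0107, 7.27e-07 and 0.0333 by edgeR). With the block, 2177 of 13210 genes tested passed at 2 weeks. Among them were Tgfb2 (2.38, adjusted p = 0.0176), Inhba (4.91, adjusted p = 0.00605), Bmp4 (0.83, adjusted p = 0.0489), Smad7 (0.72, adjusted p = 0.0492) and Bambi (-1.23, adjusted p = 0.0206), all by edgeR. Over all alternatives run the adjusted p ranged from 0.0107 to 0.788 for Tgfb2, from 7.27e-07 to 0.954 for Inhba, from 0.0489 to 0.860 for Bmp4, from 0.0492 to 0.791 for Smad7 and from 0.0206 to 0.884 for Bambi.

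At 4 days the 2 colours lay closer. No member passed and neither did any other gene (percent called 0, smallest adjusted p of 0.811 by edgeR), although 780 genes had an unadjusted p under 0.05 (5.66%, of which 4.36% higher and 1.3% lower), none of them a member, and DESeq2 called 97 genes and no member. With the block within each time point 141 of 13210 genes tested passed, Inhba among them (3.77, adjusted p = 0.0142 by edgeR). With no filter on low counts 497 passed, and again Inhba (3.59, adjusted p = 7.39e-06 by edgeR). Tgfb1, Tgfbr1 and Smad7 were higher in both RFP libraries than in both YFP libraries, against 31.7% of all genes without overlap. The median member difference was 0.19, beside -0.01 for all genes. The difference between the 2 times was itself tested, and no member passed (adjusted p of 1.00 for each by edgeR, percent called 0, with 212 genes, or 1.54%, and no member at an unadjusted p under 0.05, and no gene by DESeq2). A larger response at 2 weeks than at 4 days is therefore not shown for any of the 10.

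With both times fitted together, Tgfb1 (0.48, SE 0.16) and Smad7 (0.51, SE 0.18) were higher in all 4 RFP libraries than in all 4 YFP libraries, which held for 9.17% of all genes, 4.34% in this direction and 4.83% in the other. Neither passed the adjusted threshold by edgeR (adjusted p = 0.135 for Tgfb1 and 0.153 for Smad7), and no gene did (percent called 0), while DESeq2 called 1283 genes and no member. At an unadjusted p under 0.05 stood 21.7% of all genes (11.7% higher and 9.9% lower) and 4 members, Tgfb1, Tgfb2, Inhba and Smad7, all higher in RFP. With the block within each time point, 2244 of 13210 genes tested passed, among them Inhba (4.23, adjusted p = 0.00150 by edgeR) and Bambi (-0.91, adjusted p = 0.0228 by edgeR). A block for the number alone called 918 genes and no member. With no filter on low counts 1934 passed, with Tgfb2, Inhba and Bambi among them (adjusted p = 0.0273, 4.17e-15 and 0.0256 by edgeR). Leaving out 4 days RFP replicate 1 gave 1448 genes, with Tgfb1 (0.60, adjusted p = 0.0475) and Inhba (4.52, adjusted p = 0.0257) among them, leaving out 4 days RFP replicate 2 gave 7, and leaving out 2 weeks YFP replicate 2 gave 5. Leaving out both replicate 1 libraries of 4 days gave 1179 genes, with Inhba among them (4.10, adjusted p = 0.0392), and over all alternatives the adjusted p of Tgfb1 ran from 0.0475 to 0.987, that of Inhba from 4.17e-15 to 0.890 and that of Bambi from 0.0228 to 0.768.

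**Figure D1:**
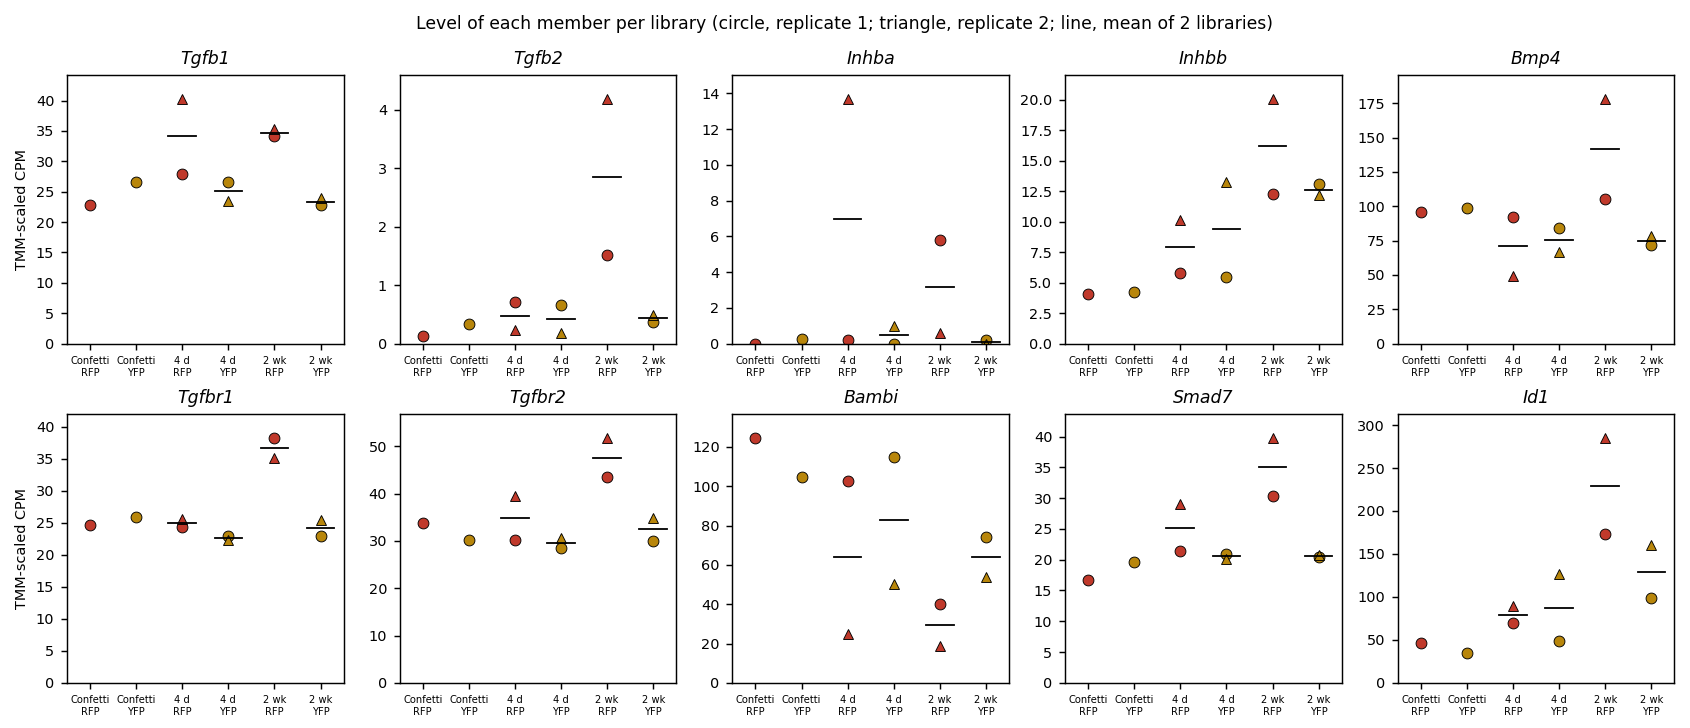
TMM-scaled CPM (vertical axes, linear from 0) of each of the 10 genes in each of the 10 libraries, by group; circles are replicate 1, triangles replicate 2, red RFP, yellow YFP, and lines the mean of 2 libraries. The 2 weeks RFP libraries lie above the 2 weeks YFP libraries for 8 genes and below them for Bambi, and at 4 days the replicates of a group lie far apart for Inhba (0.202 and 13.7 in RFP) and Bambi (103 and 24.95 in RFP).

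Against the mean of the 2 Confetti libraries, whose spread was taken from the 4 pairs of mosaic libraries, the 2 weeks RFP libraries did not overlap in any of the 10 genes, 9 being higher and Bambi lower. This held for 73.7% of all genes (37.3% higher and 36.3% lower). Id1 was the member that passed the adjusted threshold, among 738 of 13782 genes (5.35%, of which 3.43% higher and 1.92% lower), and 6 members higher and 1 lower had an unadjusted p under 0.05, beside 31.1% of all genes (17.4% higher and 13.7% lower). Tgfb2, Inhbb and Smad7 lay just outside the adjusted threshold by edgeR (adjusted p = 0.0516, 0.0516 and 0.0598), and DESeq2, which called 2221 genes, called them and Bambi as well (adjusted p = 0.0100, 0.00245, 0.0283 and 0.0105). With no filter on low counts edgeR called 3253 genes, among them Tgfb2, Inhba, Inhbb, Bambi, Smad7 and Id1. The methods count Confetti as 1 sample, so its RFP and YFP libraries may come from the same lungs, and taking them as 2 then makes the SE too small. Summed as 1 library they left 1 gene called and no member. The number of genes called rested on single libraries: it was 1 without either Confetti library, 5 without 2 weeks RFP replicate 2, 201 without 2 weeks RFP replicate 1, 93 and 95 without YFP replicate 1 or 2 of 2 weeks, 43 and 38 without YFP replicate 1 or 2 of 4 days, and 1904 and 1916 without RFP replicate 1 or 2 of 4 days. Without both replicate 1 libraries of 4 days it was 1695. The median member difference was 0.77, beside 0.03 for all genes.

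The labels give the Confetti libraries no replicate number, so a block could be set for the other 8 only, an alternative added after seeing the data that still takes the Confetti libraries as 2. With a block for the number, 3174 of 13782 genes tested passed. Among them were Tgfb2, Inhbb, Bambi, Smad7 and Id1 (adjusted p = 0.0290, 0.0109, 0.0100, 0.0223 and 0.00518 by edgeR). With the block within each time point, 5333 of the 13782 genes passed, a large part of all genes. Among them were all members but Tgfb1 (adjusted p = 0.0941 by edgeR) and Bmp4 (adjusted p = 0.112 by edgeR). In 2 weeks YFP against Confetti the same fits called 12 genes with no member, and 496 genes with Inhbb (1.65, adjusted p = 0.0165) and Id1 (1.65, adjusted p = 0.0114).

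The 2 weeks YFP libraries, which hold wildtype cells next to mutant ones, did not overlap with the Confetti libraries in 6 members: Tgfb2, Inhbb, Smad7 and Id1 were higher, and Bambi and Bmp4 lower, where 52.1% of all genes did not overlap (24.9% higher and 27.2% lower). No member passed by edgeR (6 genes called, 0.0435%, with 0.0218% in each direction), and 2 members, Inhbb and Id1, had an unadjusted p under 0.05, as did 5.61% of all genes (4.38% higher and 1.23% lower). DESeq2 called 102 genes, Id1 among them (1.72, adjusted p = 0.0362), and edgeR with no filter on low counts called Inhbb (1.62, adjusted p = 0.00134) and Id1 (1.70, adjusted p = 2.90e-04) among 538. The count of 6 genes ranged from 0 to 7 when single libraries were left out, with 0 without either Confetti library, without 2 weeks YFP replicate 2 or without 2 weeks RFP replicate 2, 1 without 2 weeks YFP replicate 1, 2 without 2 weeks RFP replicate 1 and 3 without 4 days YFP replicate 2, and it was 10 without both replicate 1 libraries of 4 days. The median member difference was 0.10, beside 0.01 for all genes. The RFP and YFP comparisons share the Confetti libraries, and the comparison of colours at 2 weeks shares its libraries with both, so these are not independent of each other.

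**Figure D2:**
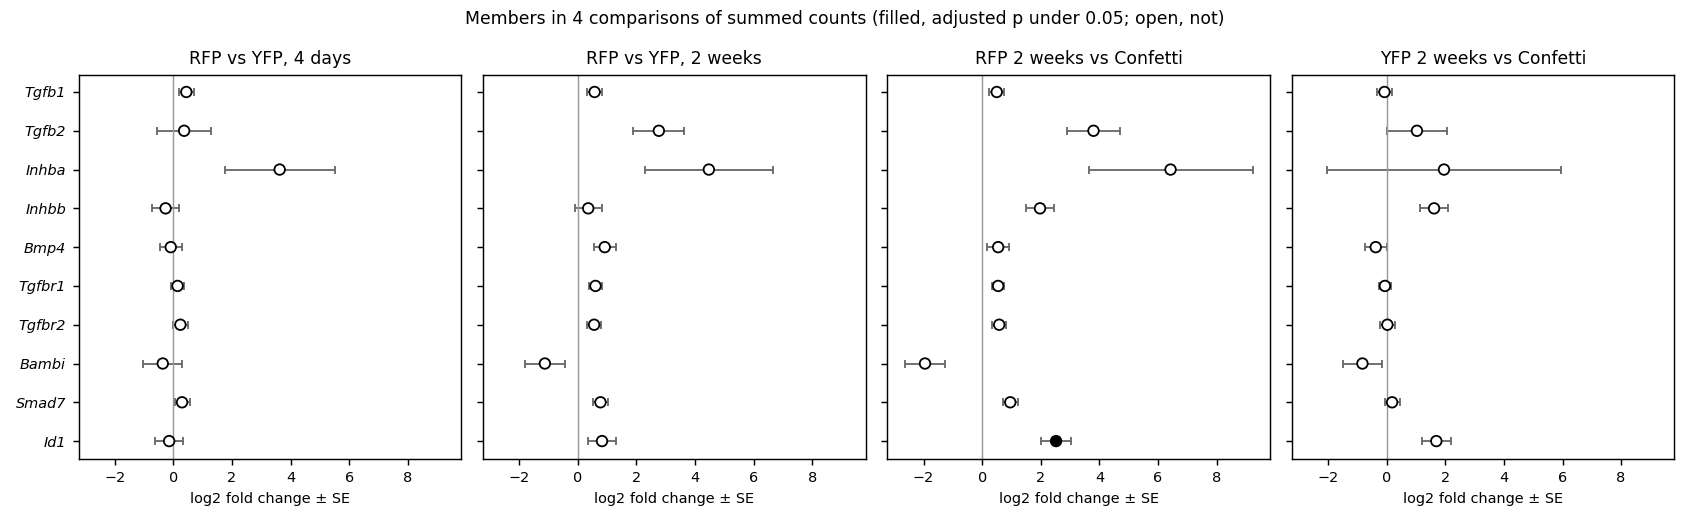
Log2 fold change with its SE (horizontal axis) of the 10 genes in 4 comparisons of summed counts by edgeR; filled points have an adjusted p under 0.05. Id1 in 2 weeks RFP against Confetti (2.52, SE 0.51) is the only filled point, and the bars of Inhba (SE 1.88 to 4.01) are wider than those of the other genes.

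Among the ligands, Tgfb1, which encodes the TGF-beta isoform most widely made in adult tissue, was at 22.9 CPM in Confetti RFP and 26.5 in Confetti YFP. It was at 28.0 and 40.3 CPM in RFP and 26.6 and 23.6 in YFP replicates 1 and 2 at 4 days, and at 34.1 and 35.3 in RFP and 22.9 and 23.9 in YFP at 2 weeks. All 4 mutant libraries lay above the 6 others, which spanned 22.9 to 26.6 CPM. At 2 weeks the RFP to YFP difference was 0.57 (SE 0.25, adjusted p = 0.310 by edgeR). When the set-aside cells were counted too it was -0.56, that of Tgfbr1 was -0.28 and that of Tgfbr2 -0.061, and the set-aside immune cells held Tgfb1 at 282.4 CPM.

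Tgfb2, which encodes a second TGF-beta isoform, was sparse, with 2 and 5 UMIs in the Confetti libraries and 2 to 14 at 4 days. Its level was 0.121 and 0.327 CPM in Confetti RFP and YFP, 0.708 and 0.232 in RFP and 0.659 and 0.175 in YFP at 4 days, and 1.52 and 4.18 in RFP against 0.377 and 0.481 in YFP at 2 weeks. The 2 weeks RFP libraries, with 117 and 171 UMIs, were the only ones above 1 CPM, and they differ from each other by more than the whole range of the other 8. The summed mesenchymal markers were also highest in these 2 libraries (1.44 and 2.03 CPM for 7 markers, beside 0.160 to 1.38 in the others), and the set-aside mesenchymal cells held Tgfb2 at 90.02 CPM; the part of this in the result was not tested. Without the alveolar cells that held a UMI of Ptprc, Pecam1, Col1a1 or Foxj1 the difference from YFP was 2.84. The difference was 2.76 (SE 0.87, adjusted p = 0.220 by edgeR) against YFP and 3.80 (SE 0.92, adjusted p = 0.0516) against Confetti, the latter resting on 7 Confetti UMIs.

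Inhba encodes the subunit of activin A, a ligand that signals through SMAD2 and SMAD3. It was counted at 0 and 4 UMIs in the Confetti libraries, at 4 and 118 in RFP and 0 and 17 in YFP at 4 days, and at 446 and 24 in RFP and 5 and 0 in YFP at 2 weeks. As levels, 4 days RFP replicate 2 reached 13.7 CPM and 2 weeks RFP replicate 1 reached 5.79, whereas the other 8 libraries lay at 0 to 0.994. High and low libraries therefore occur within 1 group at each time, and single cells hold a part of the counts: 16 of the 118 UMIs came from 1 cell, 8 of the 17 in 4 days YFP replicate 2 from 1 cell, 43 of the 446 and 12 of the 24 likewise. The differences of RFP from YFP were 3.63 (SE 1.88, adjusted p = 0.921 by edgeR) at 4 days and 4.47 (SE 2.18, adjusted p = 0.344) at 2 weeks, and with a group of 5 UMIs at most, as in 2 weeks YFP, these folds depend on the prior count of the fit. With the block within each time point the 4 days difference passed (3.77, adjusted p = 0.0142, beside a range of 7.39e-06 to 1.00 over the alternatives), and without 4 days RFP replicate 2 it was -1.41. Immune cells were set aside here, and these had more Inhba than any alveolar library (26.2 CPM). Without the alveolar cells that held a UMI of Ptprc, Pecam1, Col1a1 or Foxj1, the differences were 4.22 at 4 days and 4.37 at 2 weeks.

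Inhbb, the gene of the activin B subunit, was at 4.05 and 4.19 CPM in the Confetti libraries. It was at 5.76 and 10.1 CPM in RFP and 5.46 and 13.3 in YFP at 4 days, and at 12.3 and 20.1 in RFP and 13.1 and 12.2 in YFP at 2 weeks. Every mosaic library lay above both Confetti libraries, in either colour, and the colours overlapped at both times (0.35, SE 0.46, adjusted p = 0.718 at 2 weeks by edgeR). Against Confetti the differences at 2 weeks were 1.97 (SE 0.48, adjusted p = 0.0516) in RFP and 1.62 (SE 0.48, adjusted p = 0.766) in YFP.

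Bmp4, which encodes a BMP ligand of the developing and adult lung, was at 95.7 and 98.8 CPM in the Confetti libraries, at 92.2 and 49.2 in RFP and 84.2 and 66.7 in YFP at 4 days, and at 105 and 178 in RFP and 71.9 and 78.1 in YFP at 2 weeks. The 2 weeks RFP libraries were the highest of the 10 and all other mosaic libraries lay below both Confetti libraries. The 2 weeks difference of RFP from YFP was 0.92 (SE 0.38, adjusted p = 0.293 by edgeR), that of RFP from Confetti 0.54 (SE 0.38, adjusted p = 0.348) and that of YFP from Confetti -0.37 (SE 0.38, adjusted p = 0.804).

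Of the receptors, Tgfbr1 (the type I TGF-beta receptor kinase) was at 24.6 and 25.9 CPM in Confetti, 24.3 and 25.6 in RFP and 23.0 and 22.3 in YFP at 4 days, and 38.2 and 35.2 in RFP against 23.0 and 25.5 in YFP at 2 weeks. The other 8 libraries spanned 22.3 to 25.9 CPM, so that the 2 weeks RFP libraries alone left a narrow band. The difference from YFP was 0.60 (SE 0.22, adjusted p = 0.253 by edgeR) and from Confetti 0.54 (SE 0.21, adjusted p = 0.134).

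Tgfbr2 (the type II receptor that binds TGF-beta) was at 33.8 and 30.2 CPM in Confetti, 30.3 and 39.6 in RFP and 28.5 and 30.6 in YFP at 4 days, and 43.6 and 51.7 in RFP against 30.02 and 35.0 in YFP at 2 weeks. The 2 weeks RFP libraries were again the highest, followed by 4 days RFP replicate 2. The difference from YFP was 0.55 (SE 0.25, adjusted p = 0.312 by edgeR) and from Confetti 0.58 (SE 0.25, adjusted p = 0.154).

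Bambi encodes a membrane pseudoreceptor that lacks the kinase domain and blocks TGF-beta family receptors. It was at 124 and 105 CPM in Confetti, at 103 and 24.95 in RFP and 115 and 50.4 in YFP at 4 days, and at 39.9 and 19.0 in RFP and 74.3 and 54.1 in YFP at 2 weeks. The 4 libraries over 100 CPM are those in which AT2-like clusters hold most cells, and the 3 lowest are the 2 weeks RFP libraries and 4 days RFP replicate 2. The difference at 2 weeks was -1.13 (SE 0.67, adjusted p = 0.414 by edgeR) for RFP against YFP, -1.96 (SE 0.69, adjusted p = 0.104) for RFP against Confetti and -0.83 (SE 0.67, adjusted p = 0.776) for YFP against Confetti. At 4 days it was -0.36 (SE 0.67) and ran from -1.72 to 0.35 as single libraries were left out.

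Smad7, an inhibitory SMAD that is induced by TGF-beta and blocks its type I receptor, was at 16.7 and 19.6 CPM in Confetti, 21.3 and 29.1 in RFP and 20.9 and 20.2 in YFP at 4 days, and 30.4 and 39.7 in RFP and 20.4 and 20.7 in YFP at 2 weeks. The 4 YFP libraries lay within 20.2 to 20.9 CPM and every RFP library of mosaic mice lay above them. The difference of RFP from YFP at 2 weeks was 0.77 (SE 0.26, adjusted p = 0.235 by edgeR) and that of RFP from Confetti 0.96 (SE 0.26, adjusted p = 0.0598).

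Id1 encodes an inhibitor of basic helix-loop-helix transcription factors and is a direct target of BMP-activated SMADs. It was at 46.2 and 34.6 CPM in Confetti RFP and YFP, 69.5 and 88.9 in RFP and 48.3 and 127 in YFP at 4 days, and 174 and 285 in RFP and 98.7 and 160 in YFP at 2 weeks. As group means, these are 79.2 ± 13.7 and 87.5 ± 55.4 at 4 days and 229 ± 78.4 and 130 ± 43.6 at 2 weeks for RFP and YFP (SD, n = 2 each). Id1 rose in 2 weeks RFP cells relative to Confetti by 2.52 on the log2 scale (SE 0.51, adjusted p = 0.0441 by edgeR), with both RFP libraries above both Confetti libraries. That SE takes the Confetti libraries as 2 samples and is too small if they come from the same lungs. All 8 mosaic libraries lay above the Confetti libraries, 4 days YFP replicate 1 by the least. In 2 weeks YFP the difference from Confetti was 1.69 (SE 0.50, adjusted p = 0.766), and RFP differed from YFP by 0.82 (SE 0.48, adjusted p = 0.406).

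The call of Id1 held in 9 of 19 alternatives, with fold changes between 2.08 and 2.81 and adjusted p between 3.93e-10 and 0.209. It was lost with the Confetti libraries summed as 1 (adjusted p = 0.140 by edgeR), when the set-aside cells were counted too (0.117) and without each of 8 libraries: without Confetti RFP (0.117) or Confetti YFP (0.182), 2 weeks RFP replicate 1 (0.0579) or replicate 2 (0.209), 2 weeks YFP replicate 1 (0.0621) or replicate 2 (0.0603), and 4 days YFP replicate 1 (0.0527) or replicate 2 (0.0534). Without RFP replicate 1 or 2 of 4 days the adjusted p was 0.0288 and 0.0283. The Confetti libraries are those with 100% Xist cells, and the part of that in the difference was not tested.

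Inhba and Tgfb2 are the ligands with the fewest molecules in Confetti cells, and as described in the following paragraphs they were found in different clusters of mutant cells. The 250 bases upstream of their annotated starts are therefore shown, from RefSeq (GRCm38.p6), 5′ to 3′ on the strand of the gene, at chr13:16011601-16011850 and chr1:186705990-186706239, with matches to 4 motifs in capitals.
Inhba: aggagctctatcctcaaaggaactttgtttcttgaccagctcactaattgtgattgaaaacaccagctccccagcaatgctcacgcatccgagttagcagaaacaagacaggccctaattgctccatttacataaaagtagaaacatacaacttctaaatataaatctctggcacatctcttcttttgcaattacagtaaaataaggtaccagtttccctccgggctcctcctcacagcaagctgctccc
Tgfb2: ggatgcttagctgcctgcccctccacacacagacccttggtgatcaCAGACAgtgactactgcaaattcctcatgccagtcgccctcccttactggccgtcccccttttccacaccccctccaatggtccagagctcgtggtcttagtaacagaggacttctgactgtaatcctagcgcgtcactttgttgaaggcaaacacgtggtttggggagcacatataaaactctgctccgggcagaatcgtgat

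The motifs were searched on both strands as TGANTCA (AP-1), CAGACA (a SMAD box), GGCGCC (a GC-rich SMAD element) and GGAATG (TEAD), and no match overlapped another. In the Tgfb2 window CAGACA begins 204 bases before the start, and in the Inhba window none of the 4 occurs. Of the other 5 members with an entry, Tgfbr1 has 2 entries, 1 with GGCGCC at 233 bases before the start of the gene and 1 with CAGACA at 203 bases before another annotated start inside it, and Tgfb1, Tgfbr2, Inhbb and Bmp4 have none. Over 32536 promoters of the same length, 6.73% hold the AP-1 letters, 17.0% CAGACA, 9.65% GGCGCC and 12.6% GGAATG. The Inhba window is 43.2% G or C and the Tgfb2 window 53.6%, beside a median of 52.4% over all promoters.

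By position in GRCm38 with GENCODE M21 gene models, Tgfb1 spans chr7:25687002-25705077, Tgfb2 chr1:186622792-186705989 (minus strand), Tgfbr1 chr4:47353222-47414931, Tgfbr2 chr9:116084293-116175360 (minus), Inhba chr13:16011851-16031621, Inhbb chr1:119415465-119422248 (minus), Bmp4 chr14:46383520-46390669 (minus) and Id1 chr2:152736251-152737410, and Bambi and Smad7 both lie on chromosome 18. The library counts 3' ends, so each value stands for a whole gene and not for an exon or isoform.

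In single cells, the alveolar cells were split into 12 clusters from their other genes, with the 10 members and 77 further genes of the pathway left out of the clustering. Clusters are given by number because Scgb1a1, a club cell gene, is among the leading genes of the AT2-like cluster 0 (66.7% of its cells hold a UMI, beside 25.7% to 44.5% in the others). Clusters 0, 1 and 4 are AT2-like. Clusters 3, 5, 6 and 8 are primed AT2-like, a state of AT2 cells with inflammatory genes, and cluster 2 is cycling. The leading genes of some of these are not those of the name. Cluster 3 is led by interferon response genes (Iigp1 and Isg15), and clusters 5 and 8 by heat-shock genes among others (Hspa1b and Dnajb1). Cluster 4 is led by genes of an early stress response (Fosb, Atf3 and Egr1). Clusters 7 (led by Hopx, Procr and Akap5) and 9 (Hmga2, Aldh1a3 and S100a6) have the markers of damage-associated transient progenitors (DATP-like), a passing state on the way from AT2 to AT1, and clusters 10 (Meg3, Kng2 and Trf) and 11 (Gzme, Spp1 and Mcpt8) those of a Cd177 mixed state. The names of 2 of these clusters are not sharp, since cluster 11 scored 1.94 for DATP markers and 1.79 for those of the Cd177 mixed state, and cluster 7 scored 1.52 for DATP and 1.31 for AT1 markers. Several clusters come mostly from 1 library, so they may be that library rather than a state: 90.9% of cluster 10 and 80.7% of cluster 7 came from 2 weeks RFP replicate 2, 94.2% of cluster 11 and 92.5% of cluster 8 from 2 weeks RFP replicate 1, 82.8% of cluster 5 from 2 weeks YFP replicate 1, 60.02% of cluster 4 likewise and 59.3% of cluster 6 from 4 days YFP replicate 2. Cluster 9 was the more mixed (at most 37.4% from 1 library). At a finer resolution cluster 7 was named AT1-like and cluster 11 DATP-like. The levels per cluster are descriptions with no test, in CPM of all UMIs of the cluster.

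Inhba was found almost only in cluster 9. It stood at 28.7 CPM there, at 1.60 in cluster 11 and at 0 to 0.138 in the other 10. Within cluster 9 the level was 41.3 CPM in 2 weeks RFP replicate 1, 40.1 in 4 days RFP replicate 2 and 3.29 in 2 weeks RFP replicate 2. These are the 3 libraries with at least 50 cells in the cluster, and the last is low although the cluster takes 385 of its cells. The cluster held 97.5%, 99.2% and 87.5% of the Inhba UMIs of these libraries. Cells with an Inhba UMI made up 15.9% of the 552 cells, 11.4% of 474 and 2.34% of 385, at medians of 16369, 5306 and 14943 UMIs per cell. In the set-aside cells the shares were 5.20% in immune (median of 7076 UMIs), 3.43% in mesenchymal (4130), 0.498% in endothelial (3289) and 0.382% in ciliated cells (5855), so that the share in 2 weeks RFP replicate 2 lay below those of the immune and mesenchymal cells. Even in cluster 9 most cells held none, at a depth that misses low transcripts. In the other DATP-like cluster, 7, no Inhba UMI was found in the 88 and 716 cells of the 2 weeks RFP libraries.

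Tgfb2 had its highest level in cluster 7, at 8.63 CPM, followed by 3.01 in cluster 10, 2.46 in the cycling cluster 2 and 2.21 in cluster 3, and it lay at 0.773 in cluster 9. The pooled order of clusters 10 and 2 turned within both 2 weeks RFP libraries. Cluster 10 was at 0.823 CPM in replicate 1, from 1 UMI, and at 3.17 in replicate 2, beside 2.89 and 5.87 in cluster 2. In cluster 7 it was at 6.30 CPM in 2 weeks RFP replicate 1 (6 of 88 cells with a UMI) and 9.14 in replicate 2 (63 of 716). Within cluster 2, a state that every group contains, it was at 2.89 and 5.87 CPM in the 2 weeks RFP libraries, 0.394 in 2 weeks YFP replicate 1, 1.01 and 0.689 in RFP and 0.345 in YFP replicate 2 at 4 days, and 0 in both Confetti libraries (107 and 114 cells). The 2 weeks RFP values there stand on 63 and 21 UMIs and the others on 2 at most, at medians of 18717 or more UMIs per cell in 2 weeks RFP and 5194 to 8128 elsewhere. Both 2 weeks RFP libraries thus lay above the 2 weeks YFP library with 50 cells in this cluster, while an order at 4 days or against Confetti was not detectable at this depth.

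**Figure D3:**
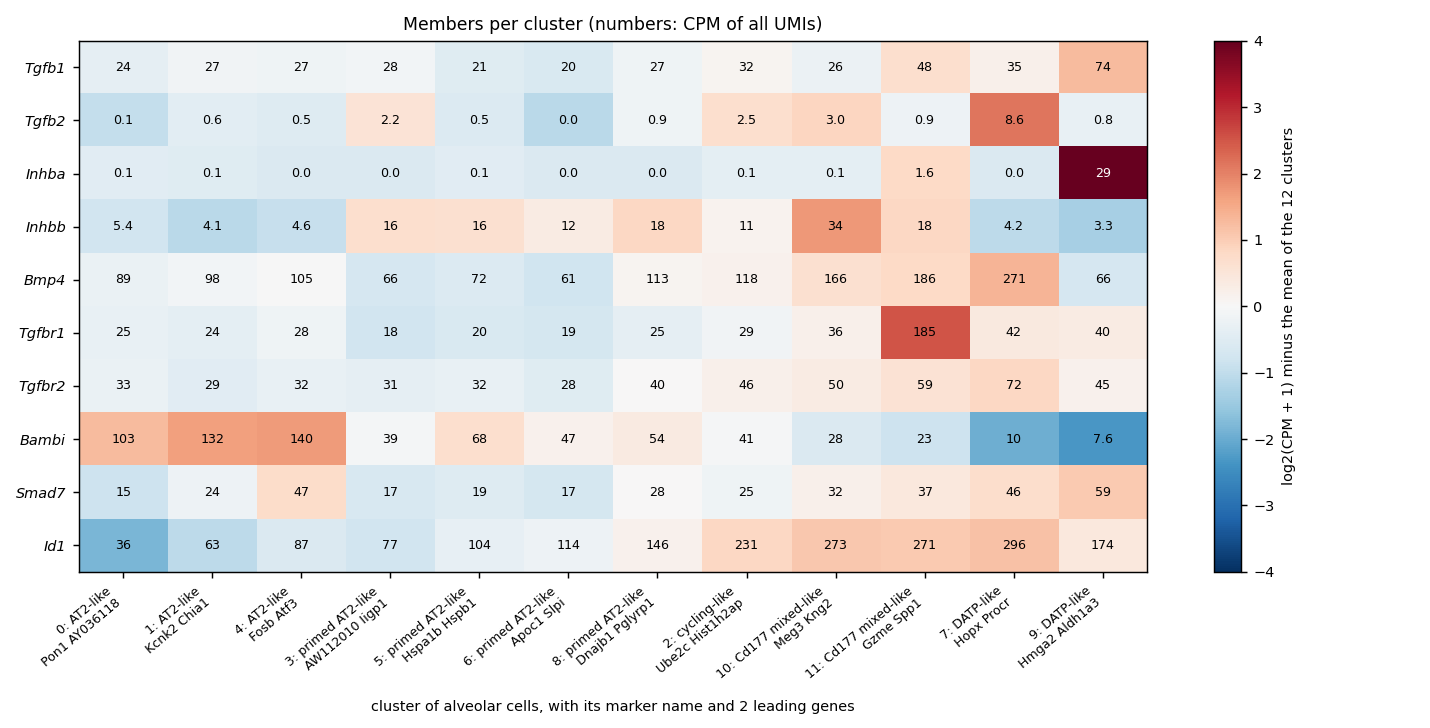
Level of the 10 genes in 12 clusters of alveolar cells; the numbers are CPM of all UMIs of a cluster and the colour is log2(CPM + 1) minus the mean of the 12 clusters for that gene, from -4 (blue) to 4 (red). Inhba reaches 28.7 in cluster 9 and Tgfb2 8.63 in cluster 7, while Bambi is at 132 in cluster 1 and 7.63 in cluster 9.

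Tgfb1 and Smad7 shared their highest cluster with Inhba, which at the finer resolution held for Smad7 and not for Tgfb1. Tgfb1 was at 74.4 CPM in cluster 9, 48.3 in cluster 11 and 19.6 to 35.2 in the others, with 61.7, 77.2 and 77.4 in cluster 9 of 4 days RFP replicate 2 and 2 weeks RFP replicates 1 and 2. Smad7 was at 59.0 CPM in cluster 9, 46.8 in cluster 4, 45.9 in cluster 7 and 15.1 to 37.3 in the others, with 56.2, 60.5 and 60.3 in cluster 9 of the same libraries. For these 2 genes the 3 libraries lay close together in cluster 9, unlike for Inhba. Within the cycling cluster 2 the order of the library sums did not hold for Tgfb1. It was at 57.65 and 51.3 CPM in Confetti, and 40.2 and 35.15 in RFP and 34.9 in YFP at 4 days. At 2 weeks it was at 30.4 and 23.2 in RFP and 36.7 in YFP. Smad7 was at 37.5 and 28.15 CPM in Confetti there, above the 4 days libraries. At 2 weeks it was at 25.6 and 30.5 in RFP and 20.5 in YFP.

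Bambi ran the other way. It was at 103, 132 and 140 CPM in the AT2-like clusters 0, 1 and 4, at 39.4 to 67.8 in the primed AT2-like clusters, at 40.9 in cycling cells, at 27.6 and 23.2 in clusters 10 and 11, and at 10.2 and 7.63 in the DATP-like clusters 7 and 9. Inside cluster 1, where no replicate 2 library had 50 cells, it was at 163 and 157 CPM in Confetti, 114 in RFP and 129 in YFP replicate 1 at 4 days, and 117 in RFP and 150 in YFP replicate 1 at 2 weeks. In the cycling cluster 2 it was at 85.0 and 59.6 CPM in Confetti, 71.4 and 30.3 in RFP and 30.1 in YFP at 4 days, and 40.7 and 20.97 in RFP and 45.7 in YFP at 2 weeks. The 3 lowest of these are the replicate 2 libraries, which cluster 1 lacks, so the spread in the 2 clusters was not compared.

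Id1 and Bmp4 had their highest pooled level in cluster 7 (296 and 271 CPM), Id1 with 273 and 271 in clusters 10 and 11 and 231 in cluster 2, and Bmp4 with 186 and 166 in clusters 11 and 10. Within single libraries the first place changed. In 2 weeks RFP replicate 2 Id1 was at 445 CPM in cluster 2 and 315 in cluster 7. In replicate 1 Bmp4 was at 186 CPM in cluster 11 and 170 in cluster 7. Cluster 7 kept the first place for Id1 in replicate 1 and for Bmp4 in replicate 2. Id1 was lowest in cluster 0 (36.2 CPM), where the Confetti libraries were at 36.0 and 33.9, the 4 days replicate 1 libraries at 40.6 (RFP) and 33.96 (YFP) and the 2 weeks YFP libraries at 64.4 and 23.8. In the cycling cluster it was at 87.9 and 51.3 CPM in Confetti, 105 and 157 in RFP and 143 in YFP at 4 days, 155 in 2 weeks YFP replicate 1, and 246 and 445 in 2 weeks RFP. The Confetti libraries are therefore the lowest and the 2 weeks RFP libraries the highest within this cluster too. In cluster 9, by contrast, Id1 was at 47.7 CPM in 4 days RFP replicate 2 and at 166 and 243 in the 2 weeks RFP libraries, and Bmp4 at 20.6, 58.0 and 100.

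Inhbb and Inhba, the 2 activin subunit genes, had their highest levels in different clusters. Inhbb was at 34.5 CPM in cluster 10 (42.8 and 34.4 in 2 weeks RFP replicates 1 and 2), at 10.8 to 18.2 in clusters 2, 3, 5, 6, 8 and 11, and at 3.33 to 5.37 in the AT2-like clusters and the DATP-like clusters 7 and 9. Tgfbr1 was at 185 CPM in cluster 11 and at 18.0 to 41.7 in the other 11. That high level rests on 243 cells of 2 weeks RFP replicate 1 (187 CPM, with a UMI in 84.0% of cells at a median of 21652 UMIs), since no other library has 50 cells there. Those cells held 1005 of the 2947 Tgfbr1 UMIs of that library, and so a part of its high sum. In the cycling cluster 2 Tgfbr1 was at 29.1 and 26.3 CPM in 2 weeks RFP and 32.7 in 2 weeks YFP replicate 1. There the Confetti libraries were at 23.1 and 28.15 CPM. Tgfbr2 varied less, from 28.5 CPM in cluster 6 to 71.5 in cluster 7.

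**Figure D4:**
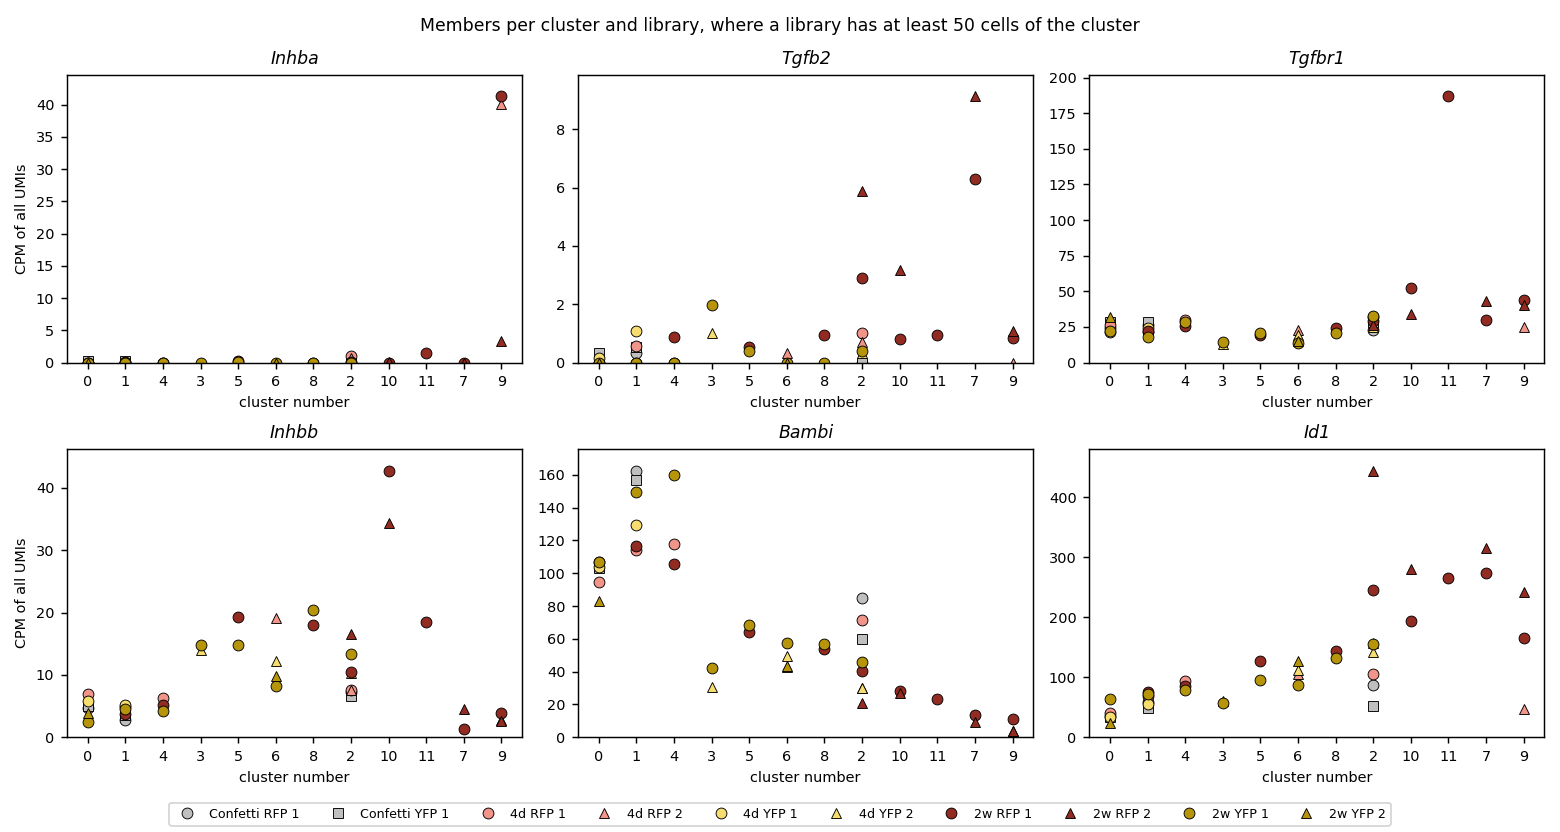
CPM of all UMIs (vertical axes, linear from 0) of 6 genes in each cluster (horizontal axes, cluster number), with 1 point for each library that has at least 50 cells of the cluster; grey is Confetti, pink and pale yellow are RFP and YFP at 4 days, dark red and dark yellow at 2 weeks. Inhba in cluster 9 is at 41.3 and 40.1 in 2 libraries and 3.29 in the other, and Tgfbr1 in cluster 11 is at 187 in the 1 library shown there.

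To compare shares of cells across depths, each cell was thinned to 2000 UMIs. On that footing the share of cells with a Bambi UMI was 21.1% and 19.4% in Confetti, 18.4% and 4.90% in RFP and 19.9% and 7.83% in YFP at 4 days, and 7.88% and 4.15% in RFP and 12.6% and 10.2% in YFP at 2 weeks, beside 1.69% in the set-aside immune cells. Unthinned, it was 36.8% in Confetti RFP and 39.7% in 2 weeks RFP replicate 1, since the latter's median cell holds 15813 UMIs and the former's 4003 (immune cells 5.33% at 7076). The share with an Id1 UMI was 8.11% and 6.50% in Confetti and 24.6% and 35.3% in 2 weeks RFP after thinning (14.9%, 10.6%, 70.6% and 76.3% before), with 8.05% to 18.1% at 4 days and 15.5% and 18.9% in 2 weeks YFP, and immune cells at 12.7%. For Inhbb it was 0.658% and 0.736% in Confetti and 2.77% and 3.75% in 2 weeks RFP (1.74%, 1.57%, 18.1% and 20.6% before thinning), beside 0.372% in immune cells. The thinned shares of Bambi, Id1 and Inhbb order the Confetti and 2 weeks RFP libraries as their CPM does. Inhba after thinning was seen in 1.89% of cells in 4 days RFP replicate 2 and 0.963% in 2 weeks RFP replicate 1, and in 4 cells or fewer of every other library.

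Of 77 further genes of the pathway (other ligands, receptors, SMADs, binders and activators, repressors and response genes), 56 passed the filter on low counts. In 2 weeks RFP against Confetti, 4 were called higher and 1 lower, beside 3.43% and 1.92% of all genes. Of the 4, 3 are among the 12 response genes tested: Id3, like Id1 a BMP target, rose by 2.53 (SE 0.40, adjusted p = 0.0356 by edgeR), Ctgf, a matricellular protein gene induced by TGF-beta, by 4.05 (SE 0.64, adjusted p = 0.0356), and Cdkn2b, a cell cycle inhibitor gene induced by TGF-beta, by 3.82 (SE 0.75, adjusted p = 0.0420). The remaining gene, Pmepa1, a feedback inhibitor of TGF-beta signalling, rose by 1.68 (SE 0.30, adjusted p = 0.0417). Bmp3, which encodes a BMP that opposes the others, fell by 1.99 (SE 0.46, adjusted p = 0.0469). These 5 calls were not followed gene by gene under the alternatives, and the number of genes called in this comparison rests on single libraries, as given with its count. When the set-aside cells were counted too no gene passed, so none of the 5 calls held. With the Confetti libraries summed as 1 only 1 gene passed, so at most 1 of the 5 held.

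Their levels by library differ in pattern. Id3 was at 25.1 and 29.9 CPM in Confetti, 137 and 180 in 2 weeks RFP and 139 and 220.5 in 2 weeks YFP, so that both colours lay above Confetti alike, and in YFP the difference was 2.71 (adjusted p = 0.179 by edgeR). Pmepa1 was at 51.1 and 45.6 CPM in Confetti, 145 and 164 in 2 weeks RFP and 72.8 and 62.4 in 2 weeks YFP, and its RFP to YFP difference of 1.19 (SE 0.30, adjusted p = 0.194) had the lowest p of the list in that comparison. Cdkn2b was at 5.56 and 3.34 CPM in Confetti, 32.8 and 89.0 in 2 weeks RFP and 6.60 and 18.9 in 2 weeks YFP.

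In the other comparisons no gene of the list passed by edgeR. Of the 56, 5 were higher and 2 lower at an unadjusted p under 0.05 at 4 days (4.36% and 1.3% of all genes) and 12 and 3 at 2 weeks (8.51% and 7.84%). With both times together 11 and 4 of 52 were (11.7% and 9.9% of all genes), in 2 weeks YFP against Confetti 5 and 2 of 56 (4.38% and 1.23%), and for the difference between times none (1.54%). The genes of lowest p at 4 days were Nbl1, an extracellular BMP antagonist (4.71, SE 1.20), Tgif1, a repressor of TGF-beta target genes (1.35, SE 0.34), Timp1, a metalloproteinase inhibitor (4.60, SE 1.53), and Lefty1, an antagonist of Nodal (-1.88, SE 0.65), with adjusted p of 0.811 to 0.820. At 2 weeks they were Pmepa1, Ltbp3, which binds latent TGF-beta (-1.004, SE 0.27), Cdkn2b (2.30, SE 0.70) and Cdkn1a, a second cell cycle inhibitor gene (1.09, SE 0.36), with adjusted p of 0.194 to 0.236. With both times together they were Tgif1 (1.15, SE 0.23), Cdkn1a (1.04, SE 0.24), Nbl1 (3.54, SE 0.86) and Timp1 (3.66, SE 0.97), with adjusted p of 0.0823 to 0.0957.

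In 2 weeks YFP against Confetti the lowest p belonged to Id3, Ctgf (2.46, SE 0.63), Tgfbi, an extracellular matrix gene induced by TGF-beta (-1.78, SE 0.48), and Gdf11, an activin-like ligand (2.42, SE 0.66), the last 3 with an adjusted p of 0.766 by edgeR. For the difference between times it belonged to Twsg1, a BMP-binding protein gene (0.61, SE 0.32), Pmepa1 (0.76, SE 0.42), Ltbp3 (-0.60, SE 0.38) and Grem1, a BMP antagonist (6.15, SE 3.88), each with an adjusted p of 1.00. At 2 weeks the median difference of RFP from YFP was 0.99 over the 12 response genes, 0.49 over 14 extracellular binders and activators, 0.24 over 8 intracellular repressors, -0.76 over 8 other ligands, -0.15 over 8 other receptors and -0.10 over 6 SMADs.

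The genes with the pattern most like that of a member over the 10 libraries were sought for the 3 members whose group means of log2(CPM + 1) span at least 2, by the root mean square difference of centred log2(CPM + 1). Among these were for Inhba Crct1 (0.280) and Tfap2a (0.359), for Bambi Arhgef38 (0.146), Mtus1 (0.178) and Selenop (0.202), and for Id1 Prdx4 (0.226) and Tstd3 (0.280). No test goes with these.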

How the data were processed

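Per the file headers and labels, the authors aligned 10x 3' reads to GRCm38 and deposited whole-number UMI counts per gene and barcode, with no normalization (submitters' processing notes: Cell Ranger 3.1.0, FastQC 0.11.3, MultiQC 1.8; file headers: Cell Ranger 5.0.1). Cells with at least 1000 genes, at most 50000 UMIs and at most 15% mitochondrial UMIs were kept (32698 of 42012). They were clustered (scanpy 1.11.5, igraph 0.11.9; 5000 variable genes, 30 components, 20 neighbours, Louvain resolution 0.8, alternative 1.5), clusters of other cell types were set aside, and the alveolar cells were clustered again without the members and pathway genes. A name required a marker score of 0.25 (except AT2) and 3 markers in 25% of cells. No doublets were removed. An alternative left out cells with a UMI of Ptprc, Pecam1, Col1a1 or Foxj1 (0.443% to 3.03% per library). At most 17 barcodes were shared by 2 libraries, and replicates differed beyond sampling noise.

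Counts per library (n = 10) were tested with edgeR 4.0.16 (R 4.3.3; TMM, filterByExpr, quasi-likelihood) over 6 groups, or the 8 libraries of mosaic mice for both times. DESeq2 1.42.0, other filters and cells, blocks and single libraries left out were alternatives. The scripts were tested on simulated counts. Depth sets the precision: 7336824 to 71543489 UMIs per library. Binomial intervals and the limit of 3 counts that a 0 allows cover counting error only.

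RFP and YFP libraries of 1 number deviated together (0.481 at 4 days and 0.627 at 2 weeks, and across times 0.104 in RFP and 0.239 in YFP). The main tests had no block, and the numbers were taken as pairs in alternative fits only. That pairing comes from the counts, as the labels name no shared mice, and with 2 libraries per group each time gives 1 value. The block within each time point was added after seeing the data for the single times and their difference, as were blocks in the comparisons with Confetti, whose libraries stayed outside them, and a fit with the Confetti libraries summed as 1.

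Members, gene lists and markers were chosen with earlier results of these data known. The pathway genes named are, in each comparison, the 4 of lowest unadjusted p and those called. The level of the targeted gene, the full name of the mosaic line and some genes that the rule names are not reported here.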

Additional observations from a re-analysis of the deposited data

Results flagged for a closer look

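Inhbb in 4 days YFP replicate 1, at 5.46 CPM, lay far below the other YFP libraries of mosaic mice (12.2 to 13.3 CPM). In all 20 groups of 4 were searched (10 genes in each colour), and chance flags about 1 in 20 where the 4 libraries are alike. These 4 span 2 times and differ in cells. AT2-like clusters held 95.3% of the alveolar cells in the flagged library and 0.988% to 18.2% in the others. The part of that in the flag was not tested.

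The cells set aside as other types had higher levels of 8 members than any alveolar library, as CPM of all their UMIs pooled over libraries. Immune cells had Tgfb1 at 282.4, Tgfbr1 at 116.9, Tgfbr2 at 117.4 and Inhba at 26.2 CPM. Endothelial cells had Id1 at 655.1, Smad7 at 207.9, Tgfb1 at 133.6, Tgfbr2 at 94.1 and Tgfb2 at 10.4 CPM. Mesenchymal cells had Id1 at 634.9, Smad7 at 215.3, Tgfb1 at 103.3, Tgfb2 at 90.02, Tgfbr2 at 84.5 and Tgfbr1 at 46.2 CPM. Ciliated cells had Inhbb at 22.6 CPM. Bambi and Bmp4 did not exceed the highest alveolar library in any of the 4 types.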

How the results depend on the processing

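By DESeq2, 97 genes passed for RFP against YFP at 4 days, 457 at 2 weeks and 1283 over both times, and 2221 (RFP) and 102 (YFP) at 2 weeks against Confetti. With no filter on low counts these were 497, 1381, 1934, 3253 and 538, with 49 for the difference between times. More genes were tested without the filter, and no share of them is given beside the members called there. With DESeq2 size factors or without cells with a marker UMI of another type, 1 passed at 2 weeks. With all filtered cells, 0 passed in either comparison with Confetti. Without both 4 days replicate 1 libraries, 1179 passed over both times and 1695 (RFP) and 10 (YFP) against Confetti. With the replicate block 918 passed over both times and 0 in the other comparisons of colours, and with the replicate block within each time point 141 at 4 days, 2177 at 2 weeks and 2244 over both times. Against Confetti, which carries no number and stayed outside the block, 3174 (RFP) and 12 (YFP) passed with the replicate block and 5333 and 496 with the replicate block within each time point, and 1 and 0 with the Confetti libraries summed as 1; these were added after seeing the data. Leaving out 1 library gave 0 to 194 genes at 4 days, 0 to 1 at 2 weeks, 0 to 1448 over both times, 1 to 1916 (RFP) and 0 to 7 (YFP) against Confetti, and 0 for the difference between times. Where a group was left with 1 library, its spread was taken from the other groups. The causes were not tested.

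Members turned direction as follows, none of these values being called. With all filtered cells, RFP against YFP was -0.57 for Tgfb2 and -0.090 for Smad7 at 4 days, -0.56 for Tgfb1, -0.28 for Tgfbr1, -0.061 for Tgfbr2 and -0.39 for Inhba at 2 weeks, and -0.046 for Tgfb1 and -0.060 for Tgfbr1 over both times. In 2 weeks YFP against Confetti it was 1.49 for Tgfb1, 1.01 for Tgfbr1 and -0.31 for Smad7, and for the difference between times -1.01 for Tgfb1, -0.45 for Tgfbr1, -0.24 for Tgfbr2 and -2.06 for Inhba. These sums include the immune cells, which hold more Tgfb1, Tgfbr1, Tgfbr2 and Inhba than any alveolar library. Without both 4 days replicate 1 libraries the difference between times was -0.20 for Tgfb1. With 1 library left out, the 4 days difference ran from -0.73 to 1.505 for Tgfb2, -1.41 to 10.4 for Inhba, -0.76 to 0.52 for Inhbb, -1.72 to 0.35 for Bambi, -0.61 to 0.29 for Bmp4 and -0.68 to 0.71 for Id1. Inhbb ran from -0.072 to 0.65 at 2 weeks and -0.20 to 0.41 over both times. In 2 weeks YFP against Confetti, Tgfb1 ran from -0.18 to 0.029, Tgfbr1 from -0.14 to 0.041, Tgfbr2 from -0.094 to 0.16 and Inhba from -2.83 to 4.87. The difference between times ran from -0.12 to 0.41 for Tgfb1, -5.91 to 5.88 for Inhba, -0.17 to 1.11 for Inhbb and -1.48 to 0.60 for Bambi.

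The 10 members kept their direction with DESeq2 size factors in all comparisons. Against thinning to 2000 UMIs, 86 of 100 shares moved beyond their interval with 1000 UMIs and 88 of 100 with all UMIs, as a change of depth must move them, and resolution 1.5 moved the highest cluster level of 6 of 10 members. Tgfb2 outside 2 weeks RFP, and Inhba outside 4 days RFP replicate 2 and 2 weeks RFP replicate 1, rest on few molecules, so their absence from a group was not detectable at this depth.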
